A study of Rattus norvegicus with 9 samples.

Results

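S100 proteins are small calcium-binding proteins, and the genes of the 6 described here, S100a8, S100a9, S100a4, S100a6, S100a10 and S100a11, were followed in cultured rat cells given a phorbol ester. The 6 were taken by gene symbol. They are 6 of 17 S100 genes and of 17315 genes in the count tables, and all 6 were among the 10128 genes that had enough reads to be tested. The cells were horizontal basal cells of strain SD rats at passage 7, grown as a primary culture from dissociated tissue. Horizontal basal cells are stem cells of the smell-sensing lining of the nose, held in reserve until injury. The 9 RNA-seq libraries, with 13601635 to 19001819 reads in genes each, fell into 3 groups of 3: cells given the vehicle, 0.1% DMSO, labelled as time 0 h, cells given 50 nM phorbol 12-myristate 13-acetate (PMA) for 6 h, and cells given 50 nM PMA for 12 h. PMA is a diacylglycerol mimic that activates protein kinase C. The labels give a DMSO level for the vehicle cells only. No vehicle library was taken at 6 h or 12 h, so PMA and time in culture cannot be told apart. The labels do not say whether the replicates came from separate cultures or animals, so each p-value covers only the variation among these libraries, which may be technical.

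An S100 protein binds calcium through paired EF-hand loops, usually as a dimer, and the calcium-bound dimer opens a surface that grips a target protein. S100a8 and S100a9 encode the subunits of calprotectin, which is abundant in neutrophils, is made by stressed or differentiating keratinocytes, binds zinc and manganese and, outside the cell, acts as an alarmin. S100a4 is linked to cell motility, S100a6 (calcyclin) to proliferating cells, and S100a10 and S100a11 to annexins at membranes. Most S100a genes lie together on a single chromosome beside genes of the cornified envelope, in a cluster known as the epidermal differentiation complex.

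S100a9 and S100a4, the members with the largest rise and the largest fall at 6 h among those matched in the promoter table, are shown by the 250 bases before their annotated starts (RefSeq, assembly GRCr8, where both genes are on chromosome 2; 4 of the 6 members were matched). The S100a9 window is chr2:178490623-178490872 on the minus strand and the S100a4 window is chr2:178388279-178388528 on the plus strand. Capitals mark a TATA box, TATAAA.

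S100a9: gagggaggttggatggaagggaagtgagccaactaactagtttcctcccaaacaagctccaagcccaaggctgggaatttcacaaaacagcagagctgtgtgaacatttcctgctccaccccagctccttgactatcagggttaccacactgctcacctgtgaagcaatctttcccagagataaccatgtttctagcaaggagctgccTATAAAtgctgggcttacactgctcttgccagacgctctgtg

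S100a4: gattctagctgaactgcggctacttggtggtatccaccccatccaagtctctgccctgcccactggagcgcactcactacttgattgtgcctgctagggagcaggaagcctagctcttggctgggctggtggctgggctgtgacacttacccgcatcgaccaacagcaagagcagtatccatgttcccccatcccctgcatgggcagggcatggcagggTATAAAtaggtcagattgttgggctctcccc

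The TATA box lay 42 bases before the start in S100a9 and 31 bases before it in S100a4, on the strand of the gene. A TATA box was present, on either strand, in 12.9% of 33469 promoter windows of the same length. The same windows were searched on both strands for an AP-1 site (TGANTCA, in 6.34% of all windows), a C/EBP site (TTGCNNAA, in 9.22%) and an NF-kB site (in 4.36%). None of these 3 motifs was found in the S100a9, S100a4, S100a6 or S100a11 window. The exact letters TATAAA were absent from the S100a6 and S100a11 windows too, and variants of them were not searched for. The motifs were chosen with the expression results known, and a match is a description of these letters.

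The calprotectin genes had the largest changes of the 6. S100a8 had 12.3, 13.6 and 21.0 CPM (read counts scaled to library size with TMM factors) in the vehicle libraries, 419.9, 481 and 299 CPM after PMA for 6 h, and 1473, 1295 and 1585 CPM after PMA for 12 h. S100a9 had 1.99, 1.38 and 4.41 CPM in the vehicle libraries, 108, 106 and 76.6 CPM at 6 h, and 255, 210.1 and 235 CPM at 12 h. Every library of a later time lay above every library of an earlier one for both genes, and the vehicle libraries already held reads of both, with 286 to 395 reads of S100a8 and 32 to 83 of S100a9.

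S100a8 was 25.8-fold higher after PMA for 6 h than in vehicle (log2 fold change 4.69, SE 0.263, Benjamini-Hochberg adjusted p = 5.6e-07 in edgeR's quasi-likelihood test). At 12 h it was 93.4-fold higher than in vehicle (log2 6.55, SE 0.282, edgeR adjusted p = 1e-07; log2 5.96 with library totals alone). S100a9 was 38.6-fold higher at 6 h (log2 5.27, SE 0.329, edgeR adjusted p = 1.4e-06) and 93.2-fold higher at 12 h (log2 6.54, SE 0.333, edgeR adjusted p = 3.8e-07). Ranked by log2 fold change among the 10128 tested genes, counted from the highest, S100a9 was 59th and S100a8 81st at 6 h, and S100a8 was 31st and S100a9 32nd at 12 h. PMA for 12 h against PMA for 6 h gave a further rise of 3.63-fold for S100a8 (log2 1.86, edgeR adjusted p = 0.00022) and of 2.41-fold for S100a9 (log2 1.27, edgeR adjusted p = 0.0028). Within each group the libraries were not evenly placed: vehicle replicate 3 was highest and PMA 6 h replicate 3 lowest in both genes. Leaving out each library in turn kept every call, with the S100a9 log2 fold change between 4.95 and 5.84 at 6 h and between 6.22 and 7.11 at 12 h.

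**Figure D1:**
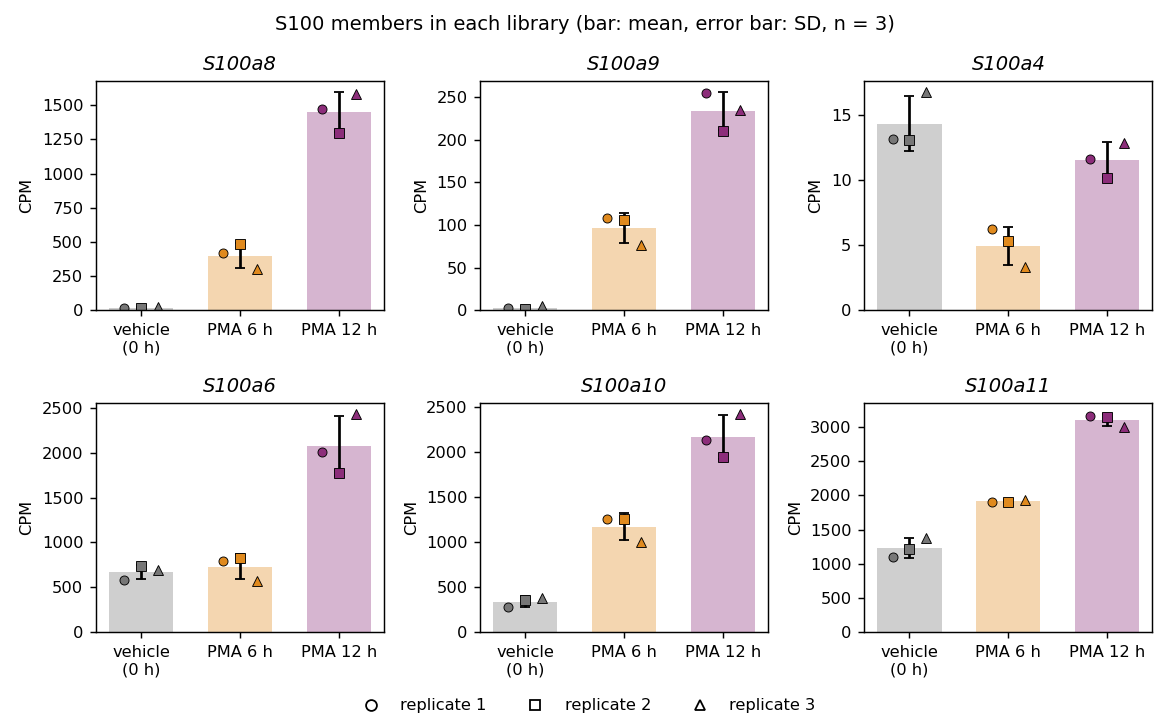
CPM of the 6 members (vertical axes, each from 0 with its own scale) in vehicle, PMA 6 h and PMA 12 h libraries; bars are group means, error bars SD (n = 3), and marker shapes are replicates. S100a8 reaches a mean of 1451 CPM and S100a9 of 233 CPM at 12 h, S100a4 dips at 6 h, and S100a6 stands apart from vehicle at 12 h only.

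The balance of the calprotectin subunits was followed inside each library as S100a9 reads per 100 S100a8 reads, a ratio that depends on transcript length but not on library size. It was 16.1, 10.1 and 21 in the vehicle libraries, 25.7, 22 and 25.6 after PMA for 6 h, and 17.3, 16.2 and 14.9 after PMA for 12 h. All 3 libraries at 6 h were above all libraries of the other groups, while the 12 h and vehicle libraries overlapped. The log2 ratio differed by 0.69 between PMA 6 h and vehicle, by 0.09 between PMA 12 h and vehicle and by -0.60 between PMA 12 h and PMA 6 h. A two-sided exact permutation test over libraries gave p = 0.1, p = 0.8 and p = 0.1 in that order, and 0.1 is the smallest p that 3 libraries against 3 allow. Together the subunit genes took 0.00188 to 0.00327% of the gene reads in vehicle, 0.0342 to 0.0516% at 6 h and 0.132 to 0.154% at 12 h.

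**Figure D2:**
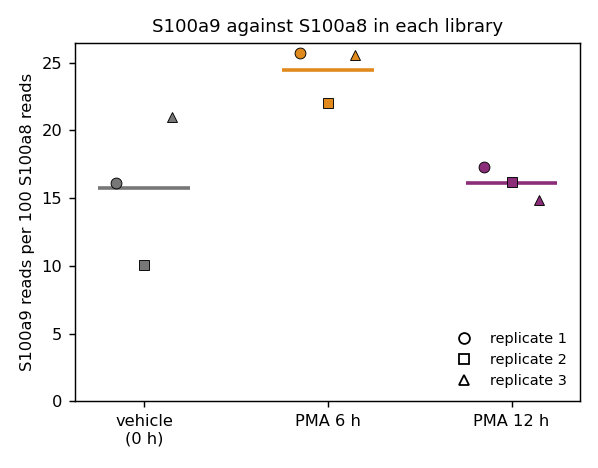
S100a9 reads per 100 S100a8 reads (vertical axis, from 0) in each of the 9 libraries, by group; horizontal lines are group means and marker shapes are replicates. The PMA 6 h libraries lie at 22 to 25.7, above the other 6 libraries.

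Since neutrophils and other myeloid cells also carry calprotectin, 17 markers of those cells were read in the same libraries. Of the 17, 13 were under 1 CPM in every library, and 5 had no read in any library: Ptprc (CD45), Csf3r, Elane, Tyrobp and Cd163. The summed level of the list was 28.1 to 30.3 CPM in vehicle, 71.0 to 73.7 CPM at 6 h and 85.9 to 97.3 CPM at 12 h, and Cd68, a lysosomal glycoprotein that is not restricted to myeloid cells, made up most of it (means of 19.6, 69.4 and 85.6 CPM). Of the 4 tested, Cd68 was higher at 6 h and 12 h (log2 1.83 and 2.13, edgeR adjusted p = 9.1e-12 and 1.4e-12). Cd14 was lower at both times, with means of 1.48 and 3.26 CPM against 7.80 CPM in vehicle (log2 -2.40 and -1.255, edgeR adjusted p = 3.8e-07 and 0.00023). Cxcr2 was lower at 6 h (log2 -1.59, edgeR adjusted p = 0.018) and was not called at 12 h (log2 -0.09, edgeR adjusted p = 0.88). Csf1r was not called at either time (edgeR adjusted p = 0.18 and 0.19). The 8 fibroblast markers summed to 4.51 to 6.00 CPM in vehicle, 2.06 to 3.82 CPM at 6 h and 1.97 to 3.64 CPM at 12 h. All 5 ensheathing glia markers were under 1 CPM in every library.

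The labelled cell type was checked against 11 horizontal basal cell markers. In vehicle the keratins Krt5, Krt17 and Krt14 averaged 6827, 6427 and 5325 CPM and Tp63 219 CPM, while Sox2, the lowest of the 11, averaged 2.93 CPM. Their summed level was 22525 to 25313 CPM in vehicle, 8976 to 10428 CPM at 6 h and 8479 to 9569 CPM at 12 h, and 9 of the 11 fell at each time, where 39.0% of all tested genes were lower at 6 h and 38.2% at 12 h. Icam1, an adhesion molecule, was higher at both times (log2 0.30 and 1.33, edgeR adjusted p = 0.0085 and 1.2e-09). Egfr was lower at 6 h (log2 -0.24, edgeR adjusted p = 0.021) and higher at 12 h (log2 0.64, edgeR adjusted p = 4.5e-06). Krt17 was not called at 6 h (log2 0.03, edgeR adjusted p = 0.72) and was lower at 12 h (log2 -0.56, edgeR adjusted p = 7.4e-06). The mean of Krt5, a basal keratin, was 402 CPM at 6 h and 489 CPM at 12 h, against 6827 CPM in vehicle (log2 -4.09 and -3.80, edgeR adjusted p = 1.1e-10 and 2.2e-10). Tp63, a transcription factor that holds these cells in reserve, fell by 2.19 at 6 h and by 1.27 at 12 h on the log2 scale (edgeR adjusted p = 7.7e-13 and 8e-10). The part of these falls in the S100 results was not tested, and in bulk RNA fewer cells of a type and less RNA per cell cannot be told apart.

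S100a10 and S100a11 rose at both times. S100a10, the light chain that pairs with annexin A2 in a heterotetramer and carries membrane proteins to the surface, had 275, 362 and 384 CPM in vehicle, 1257, 1254 and 1005 CPM at 6 h and 2132, 1943 and 2418 CPM at 12 h. The groups did not overlap. S100a10 was 3.44-fold higher at 6 h (log2 1.78, SE 0.132, edgeR adjusted p = 3.7e-08) and 6.36-fold higher at 12 h than in vehicle (log2 2.67, SE 0.136, edgeR adjusted p = 8.7e-10). PMA for 12 h was 1.85-fold above PMA for 6 h (log2 0.89, edgeR adjusted p = 8.6e-05).

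S100a11, which binds annexin A1 and acts in keratinocyte growth control and membrane repair, had 1096, 1210.2 and 1379.6 CPM in vehicle, 1900.0, 1906 and 1932 CPM at 6 h and 3156, 3141 and 2998 CPM at 12 h. The PMA 6 h libraries agreed closely (SD 17.1 CPM, n = 3), and no groups overlapped. It was 1.56-fold higher at 6 h (log2 0.64, SE 0.082, edgeR adjusted p = 1.6e-06), a call that was lost with library totals alone in place of TMM factors (log2 0.10, edgeR adjusted p = 0.25). At 12 h it was 2.52-fold higher than in vehicle (log2 1.33, SE 0.083, edgeR adjusted p = 1.4e-10) and 1.62-fold higher than at 6 h (log2 0.70, edgeR adjusted p = 2.3e-06). The reference gene table names S100a11 and S100a10 pseudogenes and near copies, and reads that matched several places were counted apart from genes, so the levels of both genes are uncertain.

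S100a6 changed late. Calcyclin, which binds the annexin A11 and CacyBP proteins, had 585, 743 and 691 CPM in vehicle, 791, 826 and 570.4 CPM at 6 h and 2011, 1769 and 2429.8 CPM at 12 h. The 6 h and vehicle libraries overlapped, while every 12 h library was above all 6 others. The log2 fold change at 6 h was 0.12 (SE 0.159, edgeR adjusted p = 0.52), and its sign turned with other scalings, to -0.14 with upper-quartile factors and to -0.43 with library totals alone (edgeR adjusted p = 0.42 and 0.013). At 12 h S100a6 was 3.07-fold higher than in vehicle (log2 1.62, SE 0.162, edgeR adjusted p = 5.3e-06) and 2.84-fold higher than at 6 h (log2 1.51, edgeR adjusted p = 2.7e-05).

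S100a4 was the only member lower at 6 h. This gene, also called metastasin, encodes a partner of non-muscle myosin heavy chain IIA, and had 13.2, 13.1 and 16.8 CPM in vehicle, 6.23, 5.29 and 3.30 CPM at 6 h and 11.6, 10.2 and 12.9 CPM at 12 h. The 6 h libraries lay below all others, and the 12 h libraries lay between, below every vehicle library. S100a4 at 6 h was at 0.342 of its vehicle level (log2 -1.55, SE 0.213, edgeR adjusted p = 3.8e-06). At 12 h the log2 fold change over vehicle was -0.31 (SE 0.2, edgeR adjusted p = 0.17), which passed the threshold at -0.58 with upper-quartile factors and at -0.89 with library totals alone (edgeR adjusted p = 0.014 and 0.00041). PMA for 12 h was 2.36-fold above PMA for 6 h (log2 1.24, SE 0.218, edgeR adjusted p = 0.00015).

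Across the 6 members, 4 were higher, 1 was lower and 1 was not called at 6 h against vehicle, where 76.8% of all tested genes were called (37.8% higher and 39.0% lower). At 12 h against vehicle 5 were higher, none was lower and 1 was not called, where 75.8% of all tested genes were called (37.7% higher and 38.2% lower). At 12 h against 6 h all 6 were higher, where 51.1% of all tested genes were called and 25.3% were called higher. The libraries of the 2 groups did not overlap in 5 of 6 members at 6 h, against 79.0% of all tested genes, and in 6 of 6 at 12 h, against 78.7%. Between 12 h and 6 h they did not overlap in 6 of 6, all above, against 58.0% of all tested genes in either direction and 28.5% above. A call over vehicle was thus common among all genes. The median log2 fold change of the members was 1.21 at 6 h, 2.14 at 12 h and 1.26 at 12 h against 6 h, beside medians of -0.03, -0.02 and 0.01 over all tested genes. Both PMA comparisons share the vehicle libraries. With the 6 genes summed, 0.26 to 0.322% of the gene reads of a vehicle library, 0.354 to 0.402% of a 6 h library and 0.736 to 0.821% of a 12 h library came from them.

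**Figure D3:**
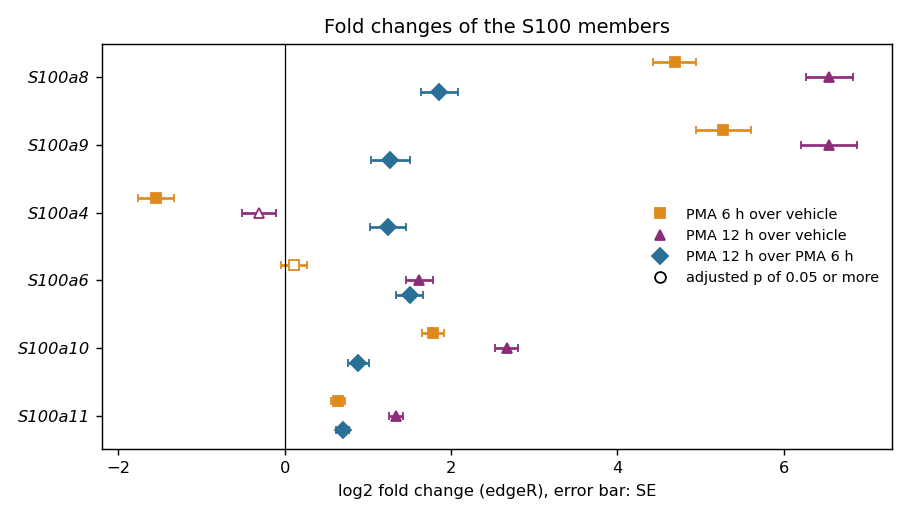
Log2 fold changes of the 6 members from edgeR (horizontal axis, error bars SE) for PMA 6 h over vehicle, PMA 12 h over vehicle and PMA 12 h over PMA 6 h; open markers have an adjusted p of 0.05 or more. The S100a8 and S100a9 values over vehicle lie between 4.69 and 6.55, S100a4 is at -1.55 at 6 h, and all 6 values of 12 h over 6 h are positive.

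The genes with the profile most like each member were named as the 3 with the smallest root mean square (RMS) difference in log2 CPM, each gene centred on its own mean, over the 9 libraries. For S100a8 these were Tm4sf1 (0.27), Gadd45b (0.325) and S100a9 (0.38). For S100a9 they were Gadd45b (0.357), S100a8 (0.38) and Calcb (0.389). Log2 CPM was computed with a prior count of 2, which raises values near the floor. Tm4sf1 averaged 0.0995 CPM and Calcb 0.220 CPM in vehicle, so both matches rest partly on that prior. In edgeR Tm4sf1 was 47.6-fold above vehicle at 6 h and 214-fold at 12 h, against 25.8-fold and 93.4-fold for S100a8. Gadd45b, a stress-response gene, averaged 18.6 CPM in vehicle, 673 CPM at 6 h and 1616 CPM at 12 h. S100a10 ran closest to Dusp8, a dual-specificity phosphatase (0.121), Lamb3, a laminin-332 chain (0.143), and Jun, an AP-1 subunit (0.151). Jun averaged 62.1, 202 and 371 CPM over the 3 groups in time order. S100a11 ran closest to Pkd2 (0.0421), Myc (0.0771) and Pik3cb (0.0802). S100a6 ran closest to Slc16a11 (0.128), Lpcat3 (0.164) and Nbl1 (0.175), which had their high values at 12 h. S100a4 ran closest to Cotl1, an actin-binding protein (0.179), Vps25 (0.187) and Acad10 (0.211). Cotl1 averaged 276, 86.7 and 211 CPM over the 3 groups in time order.

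Of 15 further S100 genes listed, 11 were in the files and 4 had enough reads to be tested. S100a7a, a psoriasin-type antimicrobial S100 gene, had 4.45, 6.70 and 6.05 CPM in vehicle, 277, 298 and 236 CPM at 6 h and 528, 471 and 583 CPM at 12 h. That put it 47.1-fold above vehicle at 6 h and 92-fold at 12 h (log2 5.56 and 6.52, edgeR adjusted p = 8.8e-14 and 2.5e-14), next to S100a8 and S100a9 in size. A near copy, S100a7l2, which the files list as RGD1562234, had no read. S100a16, a broadly expressed member, averaged 251 ± 26.6 CPM at 6 h and 391 ± 74.8 CPM at 12 h, against 235 ± 17.1 CPM in vehicle (SD, n = 3 each). Its log2 fold change was 0.10 at 6 h (edgeR adjusted p = 0.49), -0.16 with upper-quartile factors and -0.44 with library totals alone. At 12 h it was 0.73 (edgeR adjusted p = 0.00014), and 0.148 with library totals alone (edgeR adjusted p = 0.23). S100a13, which takes part in secretion of proteins without a signal peptide, passed the test at 6 h (log2 0.90, edgeR adjusted p = 0.025), but not without vehicle replicate 1, vehicle replicate 3 or PMA 6 h replicate 1 (log2 0.83, 0.86 and 0.60, edgeR adjusted p = 0.068, 0.059 and 0.15). S100a1 was under 1 CPM on average in each group and was not called. So 2 of the 4 tested genes were called at each time over vehicle, both higher, and the fewest was 1 at 6 h without any of those 3 libraries in turn. These were S100a7a and S100a13 at 6 h, and S100a7a and S100a16 at 12 h. The share called was 50% at each time, below the 76.8% and 75.8% of all tested genes. Over all tested genes 37.8% were higher at 6 h and 37.7% at 12 h. The median log2 fold change over vehicle of the 4 was 0.50 at 6 h and 0.73 at 12 h, beside -0.03 and -0.02 over all tested genes.

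The S100a genes and their neighbours were next put in chromosomal order by the GRCr8 gene table, used only for names and neighbours. All 15 S100a genes of the cluster lie on chromosome 2, with S100a1 at one end and S100a10 at the other. Among the tested genes, S100a4 and S100a6 are followed by S100a7a, S100a8 and S100a9, and S100a11 and S100a10 close the row. Of 85 other genes between them, 11 were in the files and 4 were tested. Sprr1a, a small proline-rich cornified envelope protein, averaged 55.1 CPM in vehicle, 626 CPM at 6 h and 1737 CPM at 12 h (log2 3.51 and 4.98 over vehicle, edgeR adjusted p = 1.6e-08 and 1.6e-09). Ivl, which encodes involucrin, averaged 0.705, 10.2 and 24.1 CPM in time order (log2 3.82 and 5.06 over vehicle, edgeR adjusted p = 3.5e-10 and 7.4e-12). Pglyrp4, a peptidoglycan recognition protein, was higher at 12 h (log2 1.69, edgeR adjusted p = 1.3e-06), and at 6 h its log2 fold change was 0.43 (edgeR adjusted p = 0.083), which passed without vehicle replicate 3 (0.57, edgeR adjusted p = 0.042) and turned to -0.11 with library totals alone. Sprr3 was lower at 6 h (log2 -1.16, edgeR adjusted p = 0.03), but not without vehicle replicate 3 (log2 -0.44, edgeR adjusted p = 0.27) or without any of PMA 6 h replicates 1, 2 and 3 (edgeR adjusted p = 0.097, 0.086 and 0.068), and was higher at 12 h (log2 1.5, and 2.21 without vehicle replicate 3; edgeR adjusted p = 0.0029). At 12 h against vehicle all 4 neighbours were called higher, where 37.7% of all tested genes were. Their median log2 fold change over vehicle was 1.97 at 6 h and 3.33 at 12 h.

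**Figure D4:**
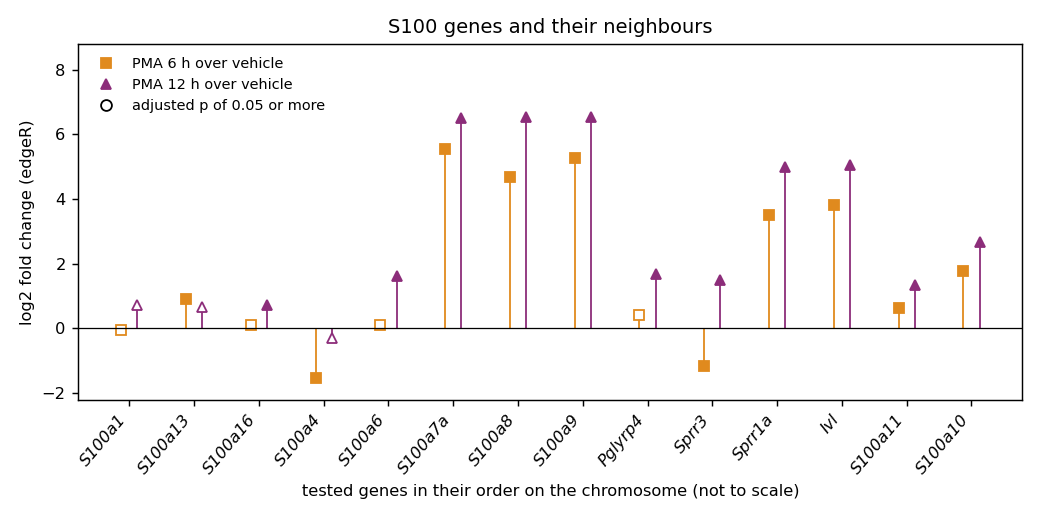
Log2 fold changes from edgeR (vertical axis) of the tested S100 genes and their tested neighbours, in their order on the chromosome and not to scale, for PMA 6 h and PMA 12 h over vehicle; open markers have an adjusted p of 0.05 or more. S100a7a, S100a8 and S100a9 stand side by side with values of 4.69 or more, and S100a4 has the lowest value at 6 h.

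Receptors that S100 proteins are known to bind outside the cell were read from a list of 7, of which 5 were tested. All 5 were higher at 6 h than in vehicle, and 3 were with library totals alone. Tlr4, the endotoxin receptor that also responds to calprotectin, had 25.9, 26.9 and 24.6 CPM in vehicle, 65.6, 64.6 and 77.8 CPM at 6 h and 35.4, 36.8 and 32.3 CPM at 12 h. The groups did not overlap, and the 6 h libraries were highest. Its log2 fold change over vehicle was 1.43 at 6 h (edgeR adjusted p = 7.7e-10) and 0.43 at 12 h (edgeR adjusted p = 0.001; -0.15 with library totals alone), and 12 h against 6 h gave -0.99 (edgeR adjusted p = 4.9e-07). Bsg, which encodes basigin, an S100A9 receptor in human melanoma and keratinocytes, averaged 1409 ± 62.7 CPM at 6 h and 1804 ± 344 CPM at 12 h, against 947 ± 41.4 CPM in vehicle (SD, n = 3 each; log2 0.57 and 0.93, edgeR adjusted p = 9.9e-05 and 5e-07). With library totals alone Bsg was not called at 6 h (log2 0.0351, edgeR adjusted p = 0.74). Alcam, an adhesion molecule, was higher at both times (log2 0.87 and 1.21, edgeR adjusted p = 8.2e-08 and 1.3e-09), and so was Nptn, neuroplastin (log2 0.92 and 0.71, edgeR adjusted p = 3.9e-08 and 1.1e-06). Nptn was not called at 12 h with library totals alone (log2 0.13, edgeR adjusted p = 0.21). Ager, the receptor for advanced glycation end products, averaged 3.03 CPM at 6 h against 1.16 CPM in vehicle (log2 1.38, edgeR adjusted p = 0.01). With library totals alone Ager was not called at 6 h (log2 0.843, edgeR adjusted p = 0.09). At 12 h its log2 fold change was 0.50 (edgeR adjusted p = 0.34; -0.07 with library totals alone), so 4 of the 5 receptors were called higher then, and 2 with library totals alone. The median log2 fold change of the 5 over vehicle was 0.92 at 6 h and 0.71 at 12 h, and 76.8% and 75.8% of all tested genes were called at these times in either direction.

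Among 14 proteins that S100 proteins bind inside cells, all tested, 7 were higher and 3 lower at 6 h, and 8 were higher and 6 lower at 12 h. Over all tested genes 76.8% were called at 6 h and 75.8% at 12 h, so the 6 h count of partners is near the background. Those counts leaned on the scaling: they were 4 and 5 at 6 h with upper-quartile factors, and 4 and 10 with library totals alone. The median log2 fold change of the list was 0.17 at 6 h and 0.35 at 12 h. Of the 4 annexins among them, 3 were higher at 6 h and 4 at 12 h, where 37.8% and 37.7% of all tested genes were. Anxa6 was the exception at 6 h (log2 -0.26, edgeR adjusted p = 0.08), where it was called lower without PMA 6 h replicate 3 (log2 -0.42, edgeR adjusted p = 0.0087) and with upper-quartile factors or library totals alone (log2 -0.52 and -0.80). At 12 h its log2 fold change was 0.49 (edgeR adjusted p = 0.0027), 0.22 with upper-quartile factors and -0.09 with library totals alone. Anxa1, the partner of S100a11, had 3131, 2861 and 2956 CPM in vehicle, 17429, 17421 and 20822 CPM at 6 h and 15442, 14974 and 13339 CPM at 12 h. Its log2 fold change over vehicle was 2.64 at 6 h and 2.29 at 12 h (edgeR adjusted p = 5.5e-14 and 3.4e-13), and it was lower at 12 h than at 6 h (log2 -0.35, edgeR adjusted p = 0.003). Anxa2, the partner of S100a10, averaged 3362 ± 138 CPM at 6 h and 5035 ± 174 CPM at 12 h, against 2688 ± 142 CPM in vehicle (SD, n = 3 each). Its log2 fold change was 0.32 at 6 h (edgeR adjusted p = 0.00068), 0.07 with upper-quartile factors and -0.22 with library totals alone, and 0.91 at 12 h (edgeR adjusted p = 5.1e-09). Anxa11, a partner of S100a6, was higher at both times (log2 1.00 and 1.34, edgeR adjusted p = 4.5e-10 and 1e-11), and so was Ahnak, a giant scaffold that binds S100a10 with annexin A2 (log2 0.90 and 0.74, edgeR adjusted p = 1.2e-06 and 1.1e-05). With library totals alone Ahnak was not called at 12 h (log2 0.156, edgeR adjusted p = 0.17).

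The 10 partners that are not annexins went both ways, with 4 higher and 3 lower at 6 h and 4 higher and 6 lower at 12 h. Among all tested genes 37.8% were higher and 39.0% lower at 6 h, and 37.7% and 38.2% at 12 h. A split in direction was thus common among all genes. Dlc1, a tumour suppressor that S100a10 binds, was higher at both times (log2 2.54 and 2.12, edgeR adjusted p = 1.6e-09 and 2.2e-08). Cacybp, which encodes the calcyclin-binding protein of a ubiquitin ligase complex, had 96.0, 93.0 and 118 CPM at 6 h and 57.4, 65.3 and 52.0 CPM at 12 h, against 154, 160.4 and 176 CPM in vehicle (log2 -0.67 and -1.49, edgeR adjusted p = 1.1e-05 and 8.4e-10). Thus S100a6 and Cacybp moved in opposite directions at 12 h. Ppp5c, a serine/threonine phosphatase whose activity S100 proteins raise in vitro, averaged 27.2 CPM at 6 h and 22.1 CPM at 12 h, against 85.8 CPM in vehicle (log2 -1.66 and -1.96, edgeR adjusted p = 3.7e-11 and 6.1e-12). Ppfibp1, liprin beta-1, a partner of S100a4, was lower at both times (log2 -0.71 and -0.49, edgeR adjusted p = 1.5e-07 and 1.3e-05). Myh9, the gene of non-muscle myosin heavy chain IIA, had a low level, with means of 1.37, 0.983 and 2.45 CPM in time order. It was not called at 6 h (log2 -0.48, edgeR adjusted p = 0.28) and was higher at 12 h (log2 0.84, edgeR adjusted p = 0.045).

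**Figure D5:**
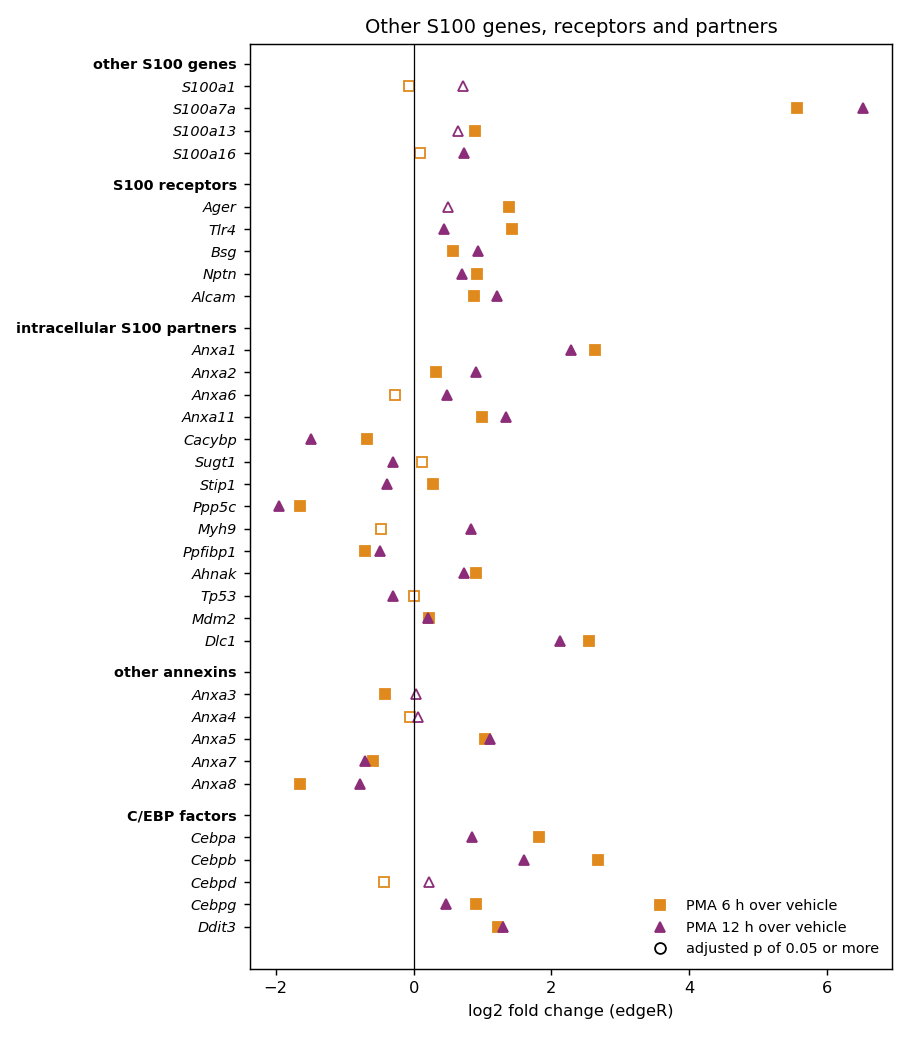
Log2 fold changes from edgeR (horizontal axis) of the tested genes of 5 lists, for PMA 6 h and PMA 12 h over vehicle; open markers have an adjusted p of 0.05 or more. S100a7a is farthest to the right, all 5 receptors lie right of 0 at both times (Tlr4 and Ager at 12 h turn left with library totals alone), and Ppp5c and Cacybp lie left of 0.

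The annexins outside that list did not move together: of 5 tested, 1 was higher and 3 lower at 6 h, and 1 was higher and 2 lower at 12 h. Over all tested genes 37.8% were higher and 39.0% lower at 6 h, and 37.7% and 38.2% at 12 h. A split in direction was thus common among all genes. Anxa8 averaged 920.3 CPM at 6 h and 1684 CPM at 12 h, against 2888 CPM in vehicle (log2 -1.65 and -0.78, edgeR adjusted p = 3.4e-11 and 5.8e-07). Anxa5, which binds phosphatidylserine, was higher at both times (log2 1.03 and 1.11, edgeR adjusted p = 5.8e-10 and 2.4e-10). With upper-quartile factors or library totals alone, 4 of the 5 were lower at 12 h. Their median log2 fold change over vehicle was -0.42 at 6 h and 0.04 at 12 h.

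Calprotectin is counted among the alarmins, and 8 of 11 other alarmin and antimicrobial genes were tested. At each time 4 were higher than in vehicle and 1 was lower (2 lower with library totals alone), and the median log2 fold change was 1.12 at 6 h and 1.40 at 12 h. That made 62.5% called at each time, below the 76.8% of all tested genes called at 6 h and 75.8% at 12 h. The number higher at 6 h fell to 3 under several alternatives, among them upper-quartile factors, library totals alone and a replicate block. Il1b was near the floor, with means of 0.194, 0.665 and 0.879 CPM in time order (log2 1.73 and 2.11 over vehicle, edgeR adjusted p = 0.036 and 0.012). Its 6 h and vehicle libraries overlapped. Slpi, a secreted protease inhibitor with antimicrobial action, averaged 50.5 ± 3.87 CPM at 6 h and 104 ± 33.2 CPM at 12 h, against 1.70 ± 0.606 CPM in vehicle (SD, n = 3 each; log2 4.92 and 5.96, edgeR adjusted p = 2.1e-07 and 5.3e-08). Il1a, an epithelial alarmin cytokine, averaged 451 CPM at 6 h and 577 CPM at 12 h, against 135 CPM in vehicle (log2 1.74 and 2.10, edgeR adjusted p = 6.2e-08 and 1.1e-08). Il33, a nuclear alarmin cytokine, was higher at both times (log2 2.30 and 3.93, edgeR adjusted p = 0.00049 and 6.7e-07), with 3.27 and 4.90 without vehicle replicate 2. Hmgb1, a chromatin protein released by damaged cells, was lower at both times (log2 -0.80 and -1.03, edgeR adjusted p = 0.01 and 0.0023), and its call at 6 h was lost without vehicle replicate 3 (log2 -0.63, edgeR adjusted p = 0.06). Its counted level was low, with means of 5.54 CPM in vehicle, 3.16 CPM at 6 h and 2.72 CPM at 12 h. Reads that matched several places were counted apart from genes, and their part in the Hmgb1 level was not tested.

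The C/EBP transcription factors, which act in keratinocyte and myeloid differentiation and are known regulators of calprotectin genes, were read from a list of 6. Of 5 tested, 4 were higher than in vehicle at 6 h and 4 at 12 h (2 with library totals alone), and 3 were lower at 12 h than at 6 h. Over all tested genes 37.8% and 37.7% were higher than in vehicle at these times, and 25.8% were lower at 12 h than at 6 h. Their median log2 fold change over vehicle was 1.23 at 6 h and 0.85 at 12 h. Cebpb had 78.9, 69.5 and 84.8 CPM in vehicle, 512, 520.3 and 462 CPM at 6 h and 220.3, 235 and 252 CPM at 12 h. The groups did not overlap. Its log2 fold change over vehicle was 2.68 at 6 h and 1.60 at 12 h (edgeR adjusted p = 2.7e-14 and 1.9e-11), and 12 h against 6 h gave -1.08 (edgeR adjusted p = 2.3e-08). Cebpa averaged 71.3 CPM at 6 h and 36.3 CPM at 12 h, against 20.1 CPM in vehicle (log2 1.82 and 0.85, edgeR adjusted p = 3.3e-10 and 7.4e-06; 12 h against 6 h -0.98, edgeR adjusted p = 3.6e-06). With library totals alone Cebpa was not called at 12 h over vehicle (log2 0.265, edgeR adjusted p = 0.052). S100a8 and S100a9 were higher at 12 h than at 6 h, while Cebpb and Cebpa were lower. A link between these factors and the S100 genes was not tested.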

How the data were processed

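The authors aligned reads to rn6 with STAR 2.7.5b and used DESeq2, per the submitters' processing notes; the gene annotation was not given in the sources used here. The deposited tables hold raw read counts per gene, unstranded and for each strand; 49.8 to 50.25% of stranded gene reads fell on the first strand column, so a gene and an overlapping antisense gene cannot be told apart. The 4 summary lines (unmapped, multimapping, no feature, ambiguous) were left out, and 67.8 to 71.3% of the reads in a table were in genes.

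Unstranded counts were fitted with edgeR 4.0.16 (R 4.3.3): filterByExpr with a minimum count of 10, TMM factors, a robust quasi-likelihood fit to all 9 libraries (common biological coefficient of variation 11.2%), and Benjamini-Hochberg adjustment over 10128 genes, called at an adjusted p under 0.05. Each SE was derived from the test, as the absolute log2 fold change divided by the square root of the quasi-likelihood F statistic. CPM uses TMM library sizes. Without transcript lengths, levels of different genes are not compared. Alternatives were RLE, upper-quartile and no scaling factors, no filter, DESeq2 1.42.0, limma-voom (limma 3.58.1), a replicate block, summed strand columns, and leaving out each library. On simulated counts for PMA 6 h against vehicle with 9995 genes, 94.7% of 94 genes changed 2-fold and 99% of 104 changed 4-fold were recovered, with 10 false calls among the rest. The simulation gave all genes 1 common dispersion and changed only that small set, in random directions. In the data 76.8% of tested genes were called at 6 h, so the simulation cannot give error rates under such a wide change or its scaling. Members and lists were chosen with earlier results of these data known. Named genes were the members, their 3 nearest genes each, and tested genes of the lists, with values for the most abundant and the largest rise and fall of the S100, receptor, partner, annexin, alarmin and C/EBP lists; locus neighbours were taken by position, after values were seen.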

Additional observations from a re-analysis of the deposited data

Results flagged for a closer look

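The response to PMA differed between 12 h and 6 h for all 6 members, by edgeR's quasi-likelihood test of 12 h against 6 h (Benjamini-Hochberg adjusted). The log2 difference was 1.86 for S100a8 (adjusted p = 0.00022, edgeR), 1.27 for S100a9 (adjusted p = 0.0028, edgeR), 1.24 for S100a4 (adjusted p = 0.00015, edgeR), 1.51 for S100a6 (adjusted p = 2.7e-05, edgeR), 0.885 for S100a10 (adjusted p = 8.6e-05, edgeR) and 0.696 for S100a11 (adjusted p = 2.3e-06, edgeR). In each of the 6 genes all 3 libraries at 12 h were above all 3 at 6 h, a pattern in this direction that 28.5% of tested genes had. The 12 h libraries differ from the 6 h libraries in time in culture as well as in time with PMA, and these cannot be told apart.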

How the results depend on the processing

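Of 306 members' values under alternatives, 301 kept their direction and side of the threshold. The others came with other scalings, which moved the median gene over vehicle to -0.289 at 6 h and -0.288 at 12 h (upper-quartile factors), or to -0.57 and -0.598 (library totals alone): S100a6 at 6 h turned to -0.142 and -0.425, S100a11 at 6 h was not called (0.102), and S100a4 at 12 h was called lower (-0.575 and -0.889). Over all genes, 3831 were higher and 3945 lower at 6 h, 3023 and 4837 with upper-quartile factors, and 2277 and 5855 with library totals alone; at 12 h these were 3818 and 3864, 2963 and 4827, and 2120 and 6021. With library totals alone 2 members were lower at 6 h and 1 at 12 h; with upper-quartile factors 1 was lower at 12 h. Other S100 genes called higher at 6 h were 1 under either, and with library totals alone 1 was lower at 6 h and 1 higher at 12 h.

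For the lists, where the same alternatives were added after seeing the data, partners at 6 h were 4 higher and 5 lower with upper-quartile factors, and at 12 h 5 were higher and 4 annexins lower. With library totals alone, at 6 h 3 receptors and 4 partners were higher, and 10 partners, 2 alarmin genes and 1 C/EBP factor lower; at 12 h 2 receptors, 4 partners and 2 C/EBP factors were higher, and 4 annexins and 2 alarmin genes lower. Under limma-voom 0 locus neighbours were lower at 6 h, and with no filter 7 were higher at 12 h. Alarmin genes higher at 6 h were 3 with upper-quartile factors, library totals alone, no filter or a replicate block. Signs of named genes turned for S100a16 at 6 h (-0.163 with upper-quartile factors, -0.444 with library totals alone) and, with library totals alone, for Anxa2 (-0.215) and Pglyrp4 (-0.107) at 6 h and Tlr4 (-0.145), Ager (-0.0673) and Anxa6 (-0.0927) at 12 h.

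Leaving out 1 library changed no member's call. Other S100 genes higher at 6 h ranged over 1 to 2, alarmin genes lower over 0 to 1 and locus neighbours lower over 0 to 1. Alarmin genes higher at 6 h were 3 without vehicle replicate 2 or vehicle replicate 3. The S100a9 to S100a8 log2 ratio ranged over 0.407 to 0.934 at 6 h and -0.192 to 0.335 at 12 h over vehicle, and over -0.673 to -0.542 at 12 h against 6 h. Same-numbered libraries did not deviate together (correlations -0.115 to 0.027, none of 9 over 0.1), so the numbers were not taken as pairs; with a replicate block 3765 genes were higher and 3885 lower at 6 h, 3742 and 3797 at 12 h, and 2452 and 2503 at 12 h against 6 h, and no member's call changed. S100a4, with 57 to 317 reads, and S100a9 in vehicle, with 32 to 83, are the members most limited by depth.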
